A study of Mus musculus with 6 samples.

Results

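C-type lectin receptors are surface proteins, most of them transmembrane, that share a fold first described in calcium-dependent sugar-binding proteins. The genes described here are all rows of the deposited tables whose symbol begins with Clec and a digit, with Cd209, or with Klr followed by a letter from a to k, together with Mgl1 and Mgl2. The rule took 69 of 31626 genes, and none of the 69 held the placeholder value that marks a failed estimate. Of these, 20 had a mean of at least 1 FPKM over the 6 libraries and are described singly. FPKM counts sequenced fragments relative to the length of the gene and the size of the library, so levels can be set side by side between genes. The singly described genes were chosen by this mean level alone, which is given as a description with no test. The gene with the lowest mean inside the threshold was Klra2 at 1.01 FPKM, and the highest mean outside it was 0.786 FPKM, in Clec4a1.

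The cells were common myeloid progenitors of C57Bl/6 mice, immature blood cells, that had been transformed with the retroviral vector MSCV-MN1-IRES-GFP, which carries the leukaemia oncogene MN1. Every library came from Dot1l flox/flox cells grown in the methylcellulose medium M3234 with FBS, IL3, IL6 and SCF. In 3 libraries the cells had been transduced with a control, and in 3 with Cre recombinase, which removes the floxed part of Dot1l, the gene of the histone H3 lysine 79 methyltransferase. Cells were sorted at day 7 after transduction. No sample had Cre together with an intact Dot1l, so Cre itself and the loss of Dot1l cannot be told apart, and the labels do not tie the replicates to separate cultures or animals. The p-values therefore reflect the spread among these libraries, part or all of which may be technical. The question was how the transcripts of these receptors differ between control and Dot1l-deleted cells.

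Myeloid receptors of the family fall into a few signalling types. Activating receptors such as Dectin-1, Dectin-2, Mincle and MDL-1 recruit the kinase SYK, through a motif in their own tail or through the adaptors FcRγ, DAP12 and DAP10, and pass the signal to CARD9. Inhibitory receptors such as MICL and DCIR carry a tyrosine motif that recruits the phosphatases SHP-1 and SHP-2, and endocytic receptors such as the macrophage galactose lectins and DC-SIGN take up sugar-bearing ligands. The Klr genes encode receptors best known on natural killer cells, and the Clec2 genes encode ligands of some of them. In this lineage the myeloid receptors are known as pattern recognition receptors and as surface markers of monocytes and granulocytes.

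Transcripts of 4 receptors were far higher in every Dot1l-deleted library: Clec12a, Clec7a, Clec5a and Mgl2. To show what lies before the start of these genes, the 250 bases upstream of the annotated RefSeq start of each are printed on the gene's own strand, from RefSeq on build GRCm38.p6, a build later than the mm9 of the deposited values. Clec4e is printed beside them as a gene that was not higher and whose window also holds a match. Capitals mark a match to TTGCNNAA, a core of the sites that C/EBP factors bind, searched on both strands.

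Clec12a, chr6:129349994-129350243, plus strand: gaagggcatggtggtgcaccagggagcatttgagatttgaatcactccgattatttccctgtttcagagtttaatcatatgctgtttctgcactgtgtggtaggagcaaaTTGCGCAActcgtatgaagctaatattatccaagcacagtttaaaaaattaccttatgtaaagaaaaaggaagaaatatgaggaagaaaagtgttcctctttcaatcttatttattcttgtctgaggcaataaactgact
Clec7a, chr6:129472780-129473029, minus strand: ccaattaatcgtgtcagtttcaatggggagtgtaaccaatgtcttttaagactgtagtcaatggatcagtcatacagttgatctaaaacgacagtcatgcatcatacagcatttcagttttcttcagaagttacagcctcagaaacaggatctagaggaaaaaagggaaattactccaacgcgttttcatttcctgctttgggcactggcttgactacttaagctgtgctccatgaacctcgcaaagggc
Clec5a, chr6:40585806-40586055, minus strand: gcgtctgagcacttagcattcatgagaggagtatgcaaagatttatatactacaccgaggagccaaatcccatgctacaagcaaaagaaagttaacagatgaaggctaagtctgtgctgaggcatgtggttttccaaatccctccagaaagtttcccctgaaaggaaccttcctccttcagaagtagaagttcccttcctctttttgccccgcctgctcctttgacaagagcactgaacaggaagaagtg
Mgl2, chr11:70130107-70130356, plus strand: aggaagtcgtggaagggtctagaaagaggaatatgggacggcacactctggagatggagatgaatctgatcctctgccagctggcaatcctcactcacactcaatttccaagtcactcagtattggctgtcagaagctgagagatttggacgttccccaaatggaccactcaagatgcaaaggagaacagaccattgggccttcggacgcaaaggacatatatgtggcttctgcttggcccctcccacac
Clec4e, chr6:123289872-123290121, minus strand: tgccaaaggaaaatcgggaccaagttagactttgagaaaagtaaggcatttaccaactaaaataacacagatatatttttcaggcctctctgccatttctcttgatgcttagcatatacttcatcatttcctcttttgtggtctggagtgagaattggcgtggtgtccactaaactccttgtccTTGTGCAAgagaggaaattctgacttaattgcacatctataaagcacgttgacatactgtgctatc

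The table of promoters held a window for 16 of the 20 genes, some with more than 1 start site, of which the first listed is shown. Mgl1, Clec2f, Clec3a and Clec4n had none. TTGCNNAA occurred in 5 of the 16 genes (Clec12a, Clec4e, Clec16a, Clec11a and Klra2). Counted by window rather than by gene, it occurred in 9.56% of all 32851 windows of that length. The Clec12a match reads TTGCGCAA, lies from -140 to -133 relative to the start, and matches on both strands at the same bases. The Clec4e match is on the opposite strand and lies from -66 to -59, where the gene's strand reads TTGTGCAA. GAGGAAGT, an ETS-type site of the kind the myeloid factor PU.1 binds, occurred on either strand in 0 of the 16 genes and in 2.44% of all windows. A match is a description of letters, not of binding.

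Dot1l (ENSMUSG00000061589) checked the labels. Its level was 20.2, 22.6 and 19.6 FPKM in the controls and 8.24, 8.17 and 5.80 FPKM after deletion, and the groups did not overlap. The mean was 2.81-fold lower, a log2 fold change of -1.39 (SE 0.157; limma adjusted p = 0.000124). The third deleted library was unlike the others. Its 10 highest genes held 39.0% of all FPKM, against 6.59% to 10.8% in the others, and its typical gene lay 0.37 below the mean of the libraries on the log2 scale, against 0.05 to 0.10 above it in the others. Median-of-ratios scaling, which equalises the typical gene, moved the median over the log2 fold changes of the 11924 tested genes from -0.16 to 0.00. Results are given as deposited, and the scaled value stands beside them where it changes a call. Depth is not given by FPKM. The spacing of the lowest values put the depth of the other libraries at about 0.742 to 0.901 of the first control, with 24.8% to 28.4% of low genes at the spacing used.

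Of the 20 genes, 15 had a mean of at least 1 FPKM in both groups and could be tested without having passed through the group where they are high. Mgl2 lay at the edge of this limit, with a control mean of 1.02 FPKM and control library 2 at 0.921 FPKM. The 15 were set on the values as deposited, and the same 15 were used with scaling. After deletion 8 of these 15 were higher (53.3%), 0 were lower and 7 were not called, with limma at an adjusted p under 0.05. At an unadjusted p under 0.05, 11 were higher and 3 lower, but no share over all genes was worked out at that threshold. Among all 11189 genes at 1 FPKM or more in both groups, 6.11% were called higher and 11.8% lower at an adjusted p under 0.05. The median log2 fold change of the 15 was 0.63, against -0.17 for all genes at that level. With scaling, 11 of the 15 were higher (73.3%) and 2 lower (13.3%), where 22.2% of all such genes were called higher and 22.4% lower. Without the third deleted library 11 were higher and 3 lower, against 16.2% and 21.0% of all such genes. Higher calls numbered 4 without control library 2, control library 3 or deleted library 2, and 5 without deleted library 1, and 1 gene was lower without deleted library 2. Without the low-value filter 4 were higher. No share over all genes was worked out for the fits without the filter or without 1 of these libraries, so these counts have none beside them. Klraq1, among the 15, is no lectin. Without it 8 of 14 were higher as deposited (57.1%), and 10 higher (71.4%) and 2 lower (14.3%) with scaling. The 14 still hold Clec16a, an endosomal protein named for a resemblance to the family. Results of these samples were known when the family was chosen, so the counts are a description. In bulk RNA, more cells that express a gene and more RNA per cell cannot be told apart.

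**Figure D1:**
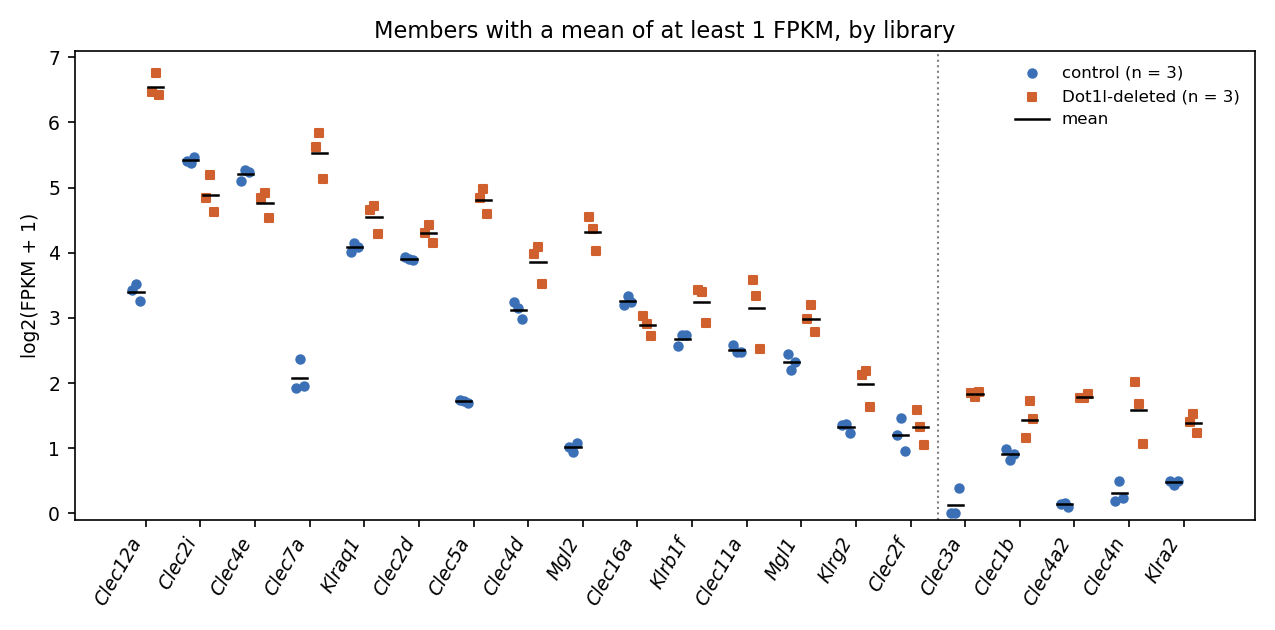
FPKM of the 20 genes with a mean of at least 1 FPKM, as log2(FPKM + 1), in each control library (circles) and each Dot1l-deleted library (squares), with black lines at the mean of the 3 plotted values. Right of the dotted line are the 5 genes that reached 1 FPKM in the deleted group only. The separation of Clec12a, Clec7a, Clec5a and Mgl2 is wide, and the groups of Clec11a and Clec2f overlap.

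Among the SYK-coupled receptors the largest change was in Clec7a (ENSMUSG00000079293), which encodes Dectin-1, the receptor for fungal β-glucan. Clec7a stood at 2.78, 4.19 and 2.87 FPKM in the controls and 48.4, 56.0 and 34.0 FPKM after deletion. The lowest deleted library lay far above the highest control. The mean was 14.1-fold higher, with a log2 fold change of 3.45 (SE 0.201; limma adjusted p = 1.48e-06).

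Clec5a (ENSMUSG00000029915) encodes MDL-1, which signals through the adaptors DAP12 and DAP10. Its controls were tight, at 2.34, 2.30 and 2.24 FPKM, and the deleted libraries held 27.8, 30.6 and 23.0 FPKM. The groups lay far apart, with an 11.8-fold higher mean and a log2 fold change of 3.09 (SE 0.141; limma adjusted p = 3.87e-07).

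Clec4d and Clec4e are neighbours on chromosome 6 and encode MCL and Mincle, which bind mycobacterial cord factor, associate with each other and couple to FcRγ. Clec4d (ENSMUSG00000030144) rose from 8.45, 7.92 and 6.91 FPKM to 14.9, 15.9 and 10.5 FPKM, with no overlap. Its mean was 1.77-fold higher, a log2 fold change of 0.74 (SE 0.169; limma adjusted p = 0.0112). The call was lost with the low-value filter removed (limma adjusted p = 0.105) and without control library 2 or 3 or deleted library 1 or 2 (limma adjusted p from 0.0521 to 0.0730).

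Clec4e (ENSMUSG00000030142) was the more abundant of the pair, at 33.2, 37.7 and 36.8 FPKM in the controls and 27.7, 29.1 and 22.1 FPKM after deletion. All deleted libraries lay below all controls. The log2 fold change of -0.44 (SE 0.157) did not pass the test as deposited (limma adjusted p = 0.0752), and passed it with scaling at -0.26 (limma adjusted p = 0.0228) and without the third deleted library at -0.33 (limma adjusted p = 0.0190). The ratio of Clec4d to Clec4e within a library, which a scaling of the whole library does not change, was 0.188 to 0.255 in the controls and 0.475 to 0.548 after deletion.

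Clec4n, which encodes Dectin-2, a receptor for fungal mannans, and Clec1b, which encodes the podoplanin receptor CLEC-2, reached 1 FPKM on average only after deletion and are given without a test. Clec4n stood at 0.1398, 0.410 and 0.177 FPKM in the controls and 3.05, 2.19 and 1.08 FPKM after deletion, an 8.71-fold higher mean whose spread among deleted libraries was wide. Clec1b stood at 0.986, 0.771 and 0.871 FPKM in the controls and 1.22, 2.29 and 1.73 FPKM after deletion. In neither gene did the groups overlap. The other gene of the SYK-coupled set used here was Clec9a, the receptor for exposed actin on dead cells. It had at most 0.380 FPKM in any library, and its groups overlapped. The summed level of the 7 SYK-coupled genes was 48.3 to 53.3 FPKM in the controls and 92.5 to 136.1 FPKM after deletion.

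Among the inhibitory receptors, Clec12a (ENSMUSG00000053063) encodes MICL, also called CLL-1, which binds uric acid crystals and is used as a surface marker of human leukaemic myeloid cells. Clec12a stood at 9.75, 10.5 and 8.56 FPKM in the controls and 87.6, 107.6 and 84.3 FPKM after deletion. The gap between the groups was many times the spread within either. The mean was 9.71-fold higher, a log2 fold change of 3.15 (SE 0.158; limma adjusted p = 6.04e-07).

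Clec4a2, which encodes the inhibitory receptor DCIR, was at 0.102, 0.120 and 0.0744 FPKM in the controls and 2.41, 2.41 and 2.56 FPKM after deletion. It passed the mean only through the deleted group, so its 24.8-fold higher mean is a description. The related Clec4b2 is placed beside Clec4a2 by family, not by signalling type. Its level was 0.0331, 0.0388 and 0 FPKM in the controls and 0.737, 1.07 and 1.02 FPKM after deletion. Clec4a1 (ENSMUSG00000049037), another gene of the DCIR group, lay in the other direction, with 1.13, 1.12 and 1.46 FPKM in the controls and 0.534, 0.195 and 0.274 FPKM after deletion, a 3.70-fold lower mean with no overlap. These Clec4a and Clec4b genes are close copies that can share reads, so the split of reads between them is uncertain. Clec4b2 and Clec4a1 were the only genes under the mean of 1 FPKM that reached 1 FPKM in any library.

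Among the endocytic receptors both macrophage galactose lectins rose, by very unequal amounts. Mgl2 (ENSMUSG00000040950), which encodes CD301b, stood at 1.03, 0.921 and 1.11 FPKM in the controls and 22.5, 19.5 and 15.3 FPKM after deletion. Its mean was 18.8-fold higher, a log2 fold change of 3.30 (SE 0.160; limma adjusted p = 4.77e-07). Mgl1 (ENSMUSG00000000318), now named Clec10a, encodes CD301a.

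Mgl1 stood at 4.47, 3.59 and 3.996 FPKM in the controls and 6.91, 8.16 and 5.88 FPKM after deletion, with no overlap. Its log2 fold change was 0.66 (SE 0.154; limma adjusted p = 0.0119). That call was lost with the filter removed (limma adjusted p = 0.0717) and without control library 2 or 3 or deleted library 2 (limma adjusted p from 0.0589 to 0.0901). The ratio of Mgl2 to Mgl1 moved from 0.230 to 0.277 in the controls to 2.39 to 3.26 after deletion, so the more abundant of the pair changed. The pair are near copies, and their reads may be shared. The other endocytic genes were all listed at 0 in every library: Clec4f, Clec4g and the 7 Cd209 genes, the mouse relatives of DC-SIGN.

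**Figure D2:**
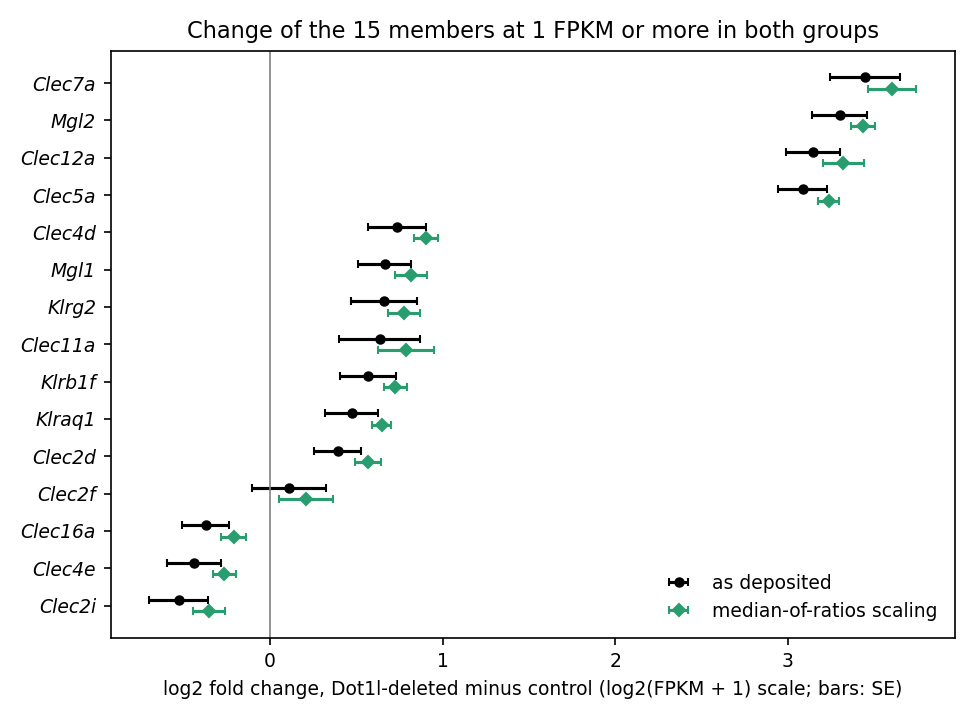
Log2 fold change, Dot1l-deleted minus control, on the log2(FPKM + 1) scale for the 15 genes with a mean of at least 1 FPKM in both groups, as deposited (circles) and after median-of-ratios scaling (diamonds), with bars of 1 SE. Clec7a, Mgl2, Clec12a and Clec5a lie above 3, and Clec16a, Clec4e and Clec2i lie below 0 in both fits.

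The Clec2 family of ligands held the most abundant gene of the control cells. Clec2i (ENSMUSG00000030365) encodes Clr-g, a ligand of the receptor that Klrb1f encodes. It stood at 41.5, 40.5 and 43.2 FPKM in the controls and 27.8, 35.5 and 23.6 FPKM after deletion, and all deleted libraries lay below all controls. The log2 fold change of -0.53 (SE 0.171) did not pass the test as deposited (limma adjusted p = 0.0541) and passed it with scaling at -0.35 (limma adjusted p = 0.0240). It also passed without deleted library 2 (-0.68, limma adjusted p = 0.0263) and without deleted library 3 (-0.40, limma adjusted p = 0.0410), but not with scaling and without deleted library 3 together (-0.37, limma adjusted p = 0.0566).

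Clec2d (ENSMUSG00000030157) encodes Clr-b, a ligand of the inhibitory receptor of Klrb1b. It stood at 14.3, 13.9 and 13.8 FPKM in the controls and 18.8, 20.6 and 16.8 FPKM after deletion, with no overlap. The log2 fold change of 0.39 (SE 0.135) had a limma adjusted p of 0.0691, with scaling it was 0.57 (limma adjusted p = 0.00166), and without the third deleted library 0.46 (limma adjusted p = 0.00325). Clec2f overlapped between groups, at 1.30, 1.75 and 0.946 FPKM in the controls and 1.99, 1.51 and 1.07 FPKM after deletion, with a log2 fold change of 0.11 (SE 0.216; limma adjusted p = 0.750). Its sign turned without control library 3 (-0.0125) or without deleted library 1 (-0.0196). Summed over the 7 Clec2 genes the level was 56.2 to 57.9 FPKM in the controls and 41.7 to 57.6 FPKM after deletion, and the groups overlapped.

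Of 29 Klr genes of the receptor families, 3 passed the mean of 1 FPKM: Klrb1f, Klrg2 and Klra2. Klrb1f (ENSMUSG00000030154), which encodes the natural killer receptor NKR-P1F, stood at 4.95, 5.65 and 5.69 FPKM in the controls and 9.77, 9.52 and 6.61 FPKM after deletion. The groups did not overlap, and the third deleted library was the closest to the controls. The log2 fold change was 0.57 (SE 0.163; limma adjusted p = 0.0332). Leaving out any 1 library other than the third deleted one lost the call (limma adjusted p from 0.103 to 0.161), as did removing the filter (limma adjusted p = 0.158). Set against its ligand gene, the ratio of Klrb1f to Clec2i was 0.119 to 0.1396 in the controls and 0.269 to 0.352 after deletion.

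Klrg2 (ENSMUSG00000071537), a member of the family named with the co-inhibitory receptor gene Klrg1, stood at 1.55, 1.60 and 1.34 FPKM in the controls and 3.35, 3.55 and 2.09 FPKM after deletion. Its mean was higher without overlap, with a log2 fold change of 0.66 (SE 0.191; limma adjusted p = 0.0351). This call too was lost on leaving out any 1 library other than the third deleted one (limma adjusted p from 0.0801 to 0.113) and without the filter (limma adjusted p = 0.154). Klra2, which encodes Ly49B, a Ly49 receptor known from myeloid cells, reached 1 FPKM only after deletion, with 0.407, 0.358 and 0.414 FPKM in the controls and 1.65, 1.87 and 1.35 FPKM after deletion. Its 4.13-fold higher mean is a description. Many Klra genes are close copies of one another, and the split of reads between those is uncertain. Whether Klra2 shares reads with them was not tested.

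Klr genes with a defined natural killer role were low. Klrd1, which encodes CD94, stood at 0, 0.0661 and 0 FPKM in the controls and 0.651, 0.819 and 0.532 FPKM after deletion. Its partners Klrc1, Klrc2 and Klrc3, the NKG2 genes, were listed at 0 in every library. Klrk1, which encodes NKG2D, was at most 0.203 FPKM, and Klrb1c, which encodes the NK1.1 antigen, at most 0.241 FPKM. Klra3, an inhibitory Ly49 gene, lay in the other direction, with 0.289, 0.292 and 0.396 FPKM in the controls and 0.0358, 0.0435 and 0.0368 FPKM after deletion.

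The remaining Clec genes above 1 FPKM are not myeloid pattern receptors. Clec11a (ENSMUSG00000004473) encodes a secreted growth factor of blood and skeletal progenitors. It stood at 4.99, 4.57 and 4.57 FPKM in the controls and 10.9, 9.13 and 4.74 FPKM after deletion, so the third deleted library lay within the controls. Its log2 fold change of 0.63 (SE 0.237; limma adjusted p = 0.0904) became 0.95 without that library (limma adjusted p = 0.00179) and 0.79 with scaling (limma adjusted p = 0.00955).

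Clec16a (ENSMUSG00000068663), an endosomal protein of mitophagy that is named for a resemblance to the family, stood at 8.22, 9.09 and 8.43 FPKM in the controls and 7.20, 6.49 and 5.57 FPKM after deletion. All deleted libraries were below the controls, and the log2 fold change of -0.37 (SE 0.137) did not pass the test (limma adjusted p = 0.0853), nor with scaling (-0.21, limma adjusted p = 0.0558). It passed without the third deleted library (-0.29, limma adjusted p = 0.0325). Clec3a, known from cartilage, was listed at 0, 0 and 0.315 FPKM in the controls and at 2.58, 2.46 and 2.65 FPKM after deletion. Klraq1 (ENSMUSG00000034709) entered by its symbol alone: its identifier now carries the name Ppp1r21, a gene that is no lectin.

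Klraq1 stood at 15.1, 16.8 and 15.99 FPKM in the controls and 24.3, 25.2 and 18.6 FPKM after deletion. Its log2 fold change was 0.47 (SE 0.153; limma adjusted p = 0.0555), 0.65 with scaling (limma adjusted p = 0.000231) and 0.60 without the third deleted library (limma adjusted p = 0.00169). Klraq1 is left out of the summed levels and the shares of them, and Clec16a is kept in both. Of the 69 genes, 6 carry another current symbol than the deposited one, and the identifiers of 2, Klra12 and Clec2f, were not matched in the reference.

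Together these shifts changed which receptors made up the family's transcripts. Without Klraq1 the summed level of the family was 144.7 to 150.2 FPKM in the controls and 269.9 to 370.0 FPKM after deletion. Clec12a, Clec7a, Clec5a and Mgl2 held 10.1% to 11.9% of it in the controls and 56.2% to 58.0% after deletion. Clec2i and Clec4e held 51.6% to 54.5% in the controls and 16.7% to 17.4% after deletion. By mean level the order in the controls was Clec2i, Clec4e, Clec2d, Clec12a and Clec16a, and Clec2i lay above Clec4e in every control library. After deletion the order was Clec12a, Clec7a, Clec2i, Clec5a and Clec4e. Clec12a was the highest in each deleted library and Clec7a the next, although the lowest Clec7a level lay just below the highest of Clec2i. The levels of Clec2i, Clec5a and Clec4e overlapped across the deleted libraries. Mgl2 moved from position 15 to position 6.

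**Figure D3:**
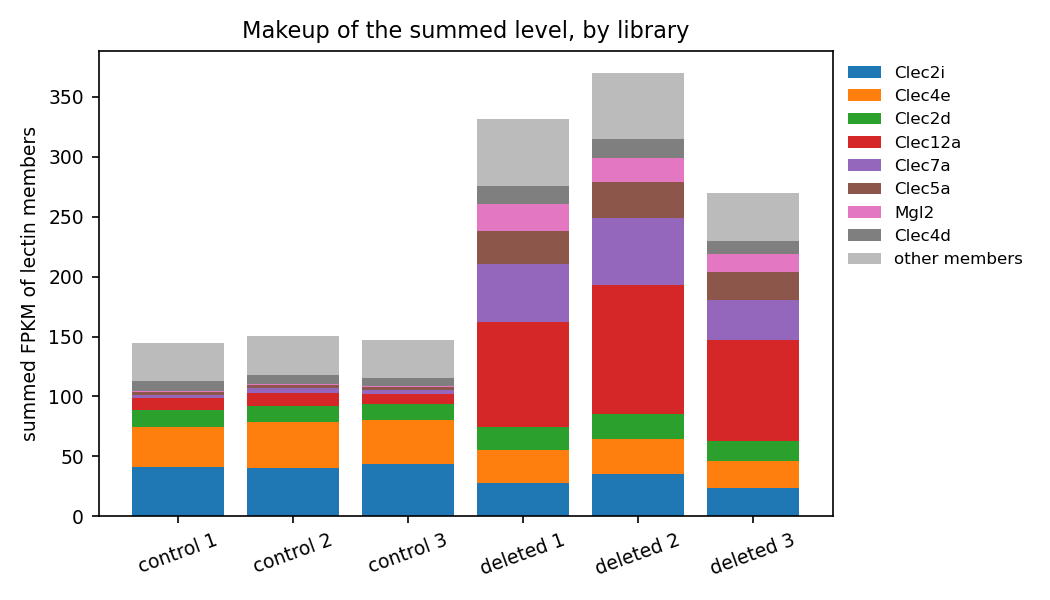
Summed FPKM of the family without Klraq1 in each library, stacked by gene, with the genes not named in the key in light grey at the top. The stacks reach 144.7 to 150.2 FPKM in the controls, where Clec2i and Clec4e are the largest pieces, and 269.9 to 370.0 FPKM after deletion, where Clec12a and Clec7a are.

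Of the 49 genes with a mean under 1 FPKM, 20 were listed at 0 in all libraries and 29 had some value. In 8 of these 29 (27.6%) every deleted library lay above every control, and in 4 (13.8%) every deleted library lay below. Among all genes under that mean with some value, these shares were 14.3% and 8.03%. Over the whole family, 49 genes had a value above 0, and the groups did not overlap in 30 of them, with the deleted group above in 23 (46.9%) and below in 7 (14.3%), or 22 of 48 (45.8%) and 7 (14.6%) without Klraq1. Across all genes with a value the shares were 12.2% above and 23.2% below. An exact 0 can be a failed estimate in these tables, so such genes are described only as listed at 0.

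The order of genes along chromosome 6, taken from RefSeq by symbol, places 48 of the 69 there. The 6 genes whose current symbol differs were not placed, among them Klra8, Klra11, Klra13 and Klra14, and neither was Klra12. Counts along the chromosome can therefore be too small. A cluster that runs from Clec4a1 to Clec4e holds 9 of the 48. The deleted group lay above the controls in 5, which were Clec4a3, Clec4a2, Clec4b2, Clec4n and Clec4d, and below in the genes at the cluster's ends, Clec4a1 and Clec4e. Clec4a4 and Clec4b1 were listed at 0. The natural killer gene complex holds 34 of the 48, of which 7 were listed at 0 in every library. Of the other 27, the deleted group lay above in 12, below in 3 and overlapped in 12, where 12.2% of all genes with a value lay above and 23.2% below. Within it Clec12a, Clec12b, Clec1b, Clec9a, Clec1a and Clec7a follow one another. The deleted group lay above the controls in all of these except Clec9a, and the levels ran from Clec12a and Clec7a at the ends of the stretch to Clec12b and Clec1a, at most 0.290 and 0.242 FPKM.

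**Figure D4:**
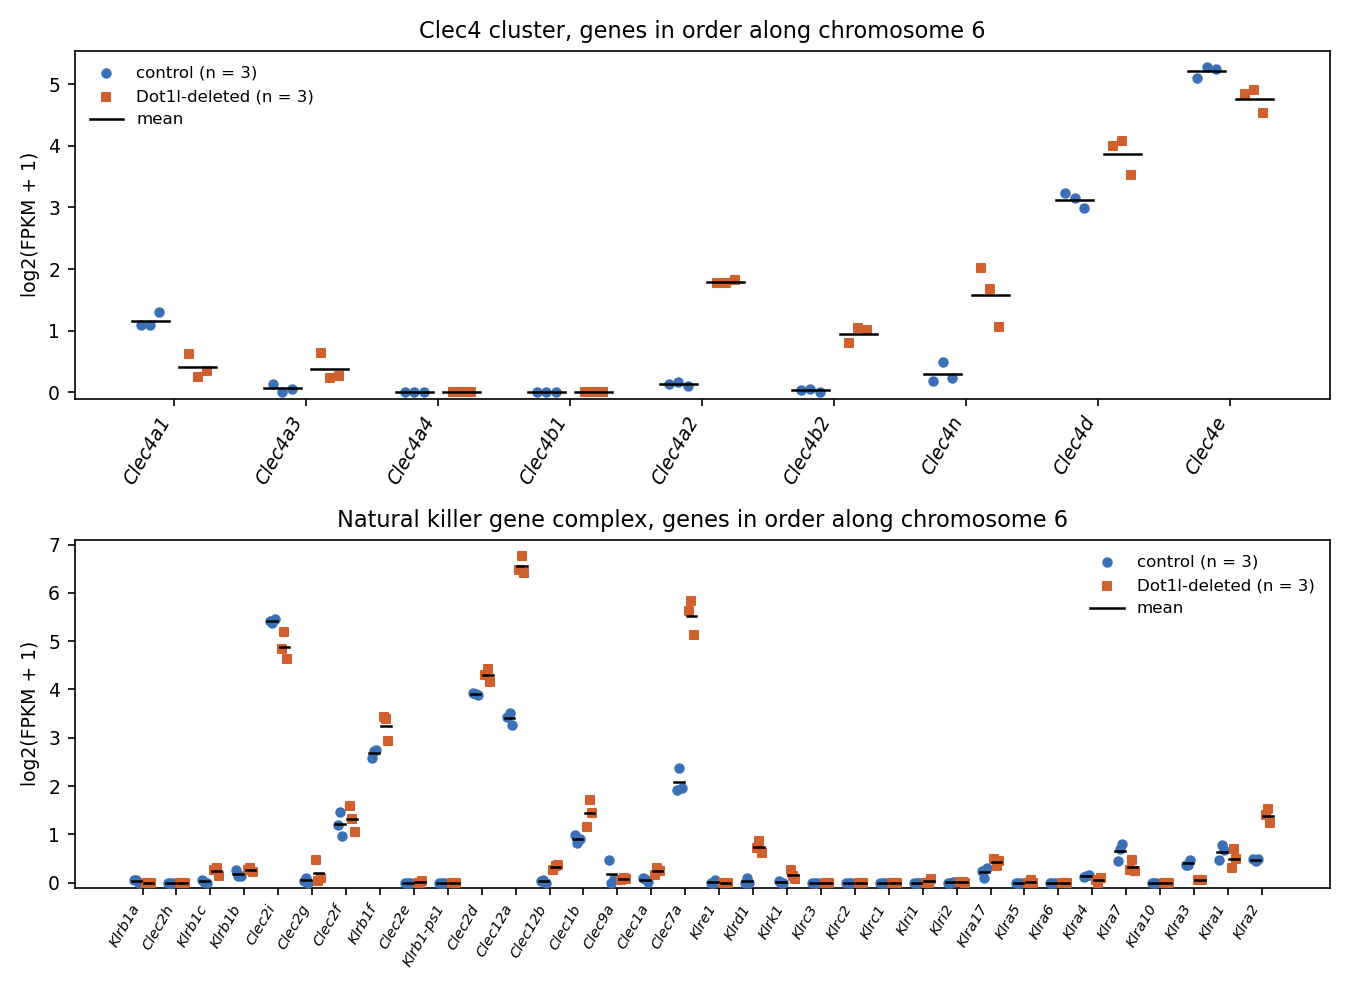
Levels as log2(FPKM + 1) of the Clec4 cluster (top) and the natural killer gene complex (bottom), for genes placed by symbol. Genes are in their order on chromosome 6, not to scale in distance. Circles are the 3 control libraries, squares the 3 Dot1l-deleted libraries, and lines their means. In the top panel the 5 genes that lie higher after deletion stand between Clec4a1 and Clec4e, and in the bottom panel Clec12a and Clec7a stand out.

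Of the adaptors that carry signals of the activating receptors, 2 rose, Tyrobp and Hcst, and Fcer1g did not pass the test. Tyrobp, which encodes DAP12, stood at 31.0, 28.8 and 21.0 FPKM in the controls and 182, 213 and 147 FPKM after deletion. The groups lay far apart, with a 6.70-fold higher mean and a log2 fold change of 2.70 (SE 0.203; limma adjusted p = 7.26e-06). Hcst, which encodes DAP10, stood at 11.1, 9.29 and 8.86 FPKM in the controls and 18.9, 17.0 and 13.1 FPKM after deletion.

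The Hcst groups did not overlap either, and its log2 fold change was 0.68 (SE 0.163; limma adjusted p = 0.0135), a call lost without the filter (limma adjusted p = 0.1002) and without control library 2 or 3 or deleted library 1 or 2 (limma adjusted p from 0.0602 to 0.0900). Fcer1g, which encodes FcRγ, the adaptor of Clec4d, Clec4e and Clec4n, was the most abundant of the adaptors at 298, 305 and 294 FPKM in the controls, and stood at 219, 239 and 172 FPKM after deletion. All deleted libraries were below the controls. The log2 fold change of -0.52 (SE 0.178; limma adjusted p = 0.0671) passed the test with scaling (-0.34, limma adjusted p = 0.00235) and without the third deleted library (-0.38, limma adjusted p = 0.00619).

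None of the 4 downstream genes that follow passed the test as deposited. Syk, the kinase, had a log2 fold change of 0.14 (limma adjusted p = 0.549), and Card9, the scaffold that leads to NF-κB, 0.11 (limma adjusted p = 0.686). With scaling they were 0.32 (limma adjusted p = 0.00211) and 0.29 (limma adjusted p = 0.000730). Ptpn6, which encodes the phosphatase SHP-1, had 0.26 (limma adjusted p = 0.340) as deposited and 0.44 (limma adjusted p = 0.000198) with scaling. Without the third deleted library Syk had 0.26 (limma adjusted p = 0.0106), Card9 0.26 (limma adjusted p = 0.00734) and Ptpn6 0.42 (limma adjusted p = 0.00345). Inpp5d, which encodes the phosphatase SHIP-1, had -0.18 (limma adjusted p = 0.472), and its direction turned to 0.0035 with scaling.

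Of a list of 40 adaptor and SYK-CARD9 pathway genes, 38 were in the tables and 35 were tested. At 1 FPKM or more in both groups were 34, of which 6 were higher and 5 lower after deletion, where 6.11% of all such genes were higher and 11.8% lower. With scaling 12 were higher and 8 lower, where 22.2% and 22.4% of all such genes were called. The remaining gene, Fgr, passed the mean through the deleted group only. With Fgr the 35 had 7 higher and 5 lower. Of all tested genes 7.43% were higher and 12.2% lower (23.0% and 22.3% with scaling). The median log2 fold change of the 35 was -0.15 (0.03 with scaling). Without the third deleted library the 35, Fgr included, had 11 higher and 10 lower. In that fit 16.2% of all genes at 1 FPKM or more in both groups were higher and 21.0% lower. Lower calls numbered 2 without control library 1 or 2 and 3 without control library 3 or deleted library 2. For those fits no share over all genes was worked out. The SRC-family kinase Fyn was 4.86-fold lower (log2 fold change -2.08, SE 0.147; limma adjusted p = 5.00e-06). Lat2, a membrane adaptor known from mast cells and B cells, was 3.81-fold lower (-1.89, SE 0.166; limma adjusted p = 2.01e-05). Of the list of 8 inhibitory phosphatases and their adaptors, all tested, 1 was higher and 7 were not called (5 higher and 1 lower with scaling). That gene was Dok3, an adaptor of inhibitory signalling, with a log2 fold change of 0.72 (SE 0.152; limma adjusted p = 0.00718).

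**Figure D5:**
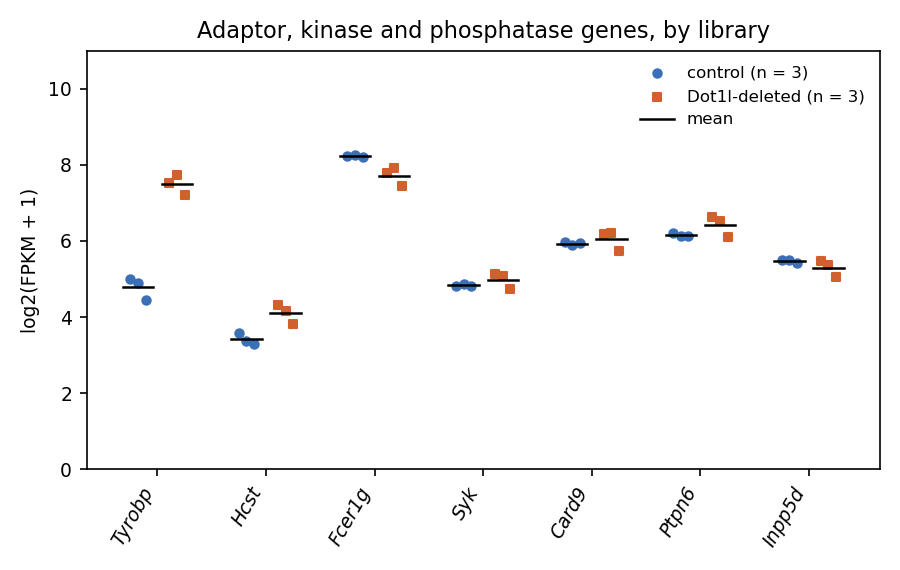
Levels as log2(FPKM + 1) of the adaptors Tyrobp, Hcst and Fcer1g, the kinase Syk, the scaffold Card9 and the phosphatases Ptpn6 and Inpp5d in the 3 control (circles) and 3 Dot1l-deleted (squares) libraries, with lines at the means. Tyrobp and Hcst lie higher after deletion and Fcer1g lies lower.

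A further list held genes that mostly carry a C-type lectin-like domain under other names. Of 45 listed, 44 were in the tables, 14 were listed at 0 throughout and 13 were tested. Bst2 and Susd2, which carry no such domain, were on the list as well, and Prg2 passed the mean through the deleted group only. Without Bst2 and Susd2, 11 genes had 1 FPKM or more in both groups, of which 3 were higher and 3 lower, against 6.11% and 11.8% of all such genes. With scaling 7 were higher and 3 lower, against 22.2% and 22.4%. Without the third deleted library, the 12 tested genes that include Prg2 had 7 higher and 3 lower, against 4 and 3 with it. Prg2 was among the higher genes in both counts, so these are a description. In the fit without that library, 16.2% of all genes at 1 FPKM or more in both groups were higher and 21.0% lower. Olr1, which encodes the oxidised lipoprotein receptor LOX-1 and also belongs to the Dectin-1 group, stood at 5.79, 5.83 and 6.16 FPKM in the controls and 68.8, 73.3 and 56.5 FPKM after deletion. Its 11.2-fold higher mean (log2 fold change 3.27, SE 0.147; limma adjusted p = 3.37e-07) was of the size seen in Clec7a and Clec5a. Cd302, an endocytic receptor, was 8.17-fold higher (2.28, SE 0.208; limma adjusted p = 2.65e-05). Thbd, which encodes thrombomodulin, was 3.30-fold lower (-1.62, SE 0.163; limma adjusted p = 5.51e-05), and Cd72, an inhibitory receptor of B cells, 1.93-fold lower (-0.80, SE 0.138; limma adjusted p = 0.00221).

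Markers of other cell types moved beside these receptors, and their part in the results was not tested. Counts are over markers with at least 1 FPKM in both groups, where 6.11% of all such genes were higher and 11.8% lower. Of 11 such neutrophil markers, 10 were higher and the other was not called. The summed level of that list was 2197 to 2602 FPKM in the controls and 23919 to 29402 FPKM after deletion, led by S100a8 and S100a9, 23.1-fold and 18.8-fold higher. Of 3 such macrophage markers, 2 were higher, among them Vcam1 (14.2-fold), with list sums of 38.5 to 42.2 FPKM and 77.2 to 103.9 FPKM, and Marco and C1qa listed at 0. Fcgr1 and Csf1r passed the mean through the deleted group only. Cd163 passed it through the control group only, and its mean was 2.66-fold lower after deletion, with no overlap. Of 3 such dendritic cell markers, 2 were lower, Flt3 and Tcf4, with list sums of 148.0 to 163.5 FPKM and 71.7 to 117.8 FPKM. Cd209a and Siglech of that list were at 0, and Cd74 passed through the deleted group only. Of 3 such markers on the natural killer list, 2 were higher, Nkg7 and Gzmb (2.23-fold and 2.19-fold), with list sums of 68.3 to 79.2 FPKM and 125.0 to 186.2 FPKM. Ncr1, Gzma and Tbx21 of that list were at 0 in every library, as was Cd3g, a T-cell gene it also holds. Of 13 such progenitor markers, 4 were higher, led by Csf2ra and Fcgr3, and 5 lower, led by Flt3 and Cd34, the latter 6.10-fold lower. Their sums were 1686 to 1726 FPKM in the controls and 986.2 to 1321 FPKM after deletion, and none was listed at 0 throughout. With scaling, 22.2% of all genes at 1 FPKM or more in both groups were higher and 22.4% lower. Higher calls were then 11 neutrophil, 3 macrophage, 1 dendritic cell, 2 natural killer and 5 progenitor markers. Lower calls were then 2 dendritic cell and 6 progenitor markers.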

How the data were processed

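Libraries of 3 control and 3 Dot1l-deleted samples, grouped by their titles, were made with a stranded mRNA kit, per the labels' protocols. The authors deposited 1 FPKM value for each Ensembl gene in each library. The submitters' processing notes name CASAVA 1.8.2, GSNAP, SAMtools and Cuffdiff, with build mm9, without their roles or order. No source used here says if counting used strand, so overlapping and antisense genes may share reads. Members and gene lists were chosen with earlier results of these data known.

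Of 31626 genes, 31248 held no placeholder value, and the 11924 of these with a mean of at least 1 FPKM were tested. The test was limma 3.58.1 in R 4.3.3, with lmFit and then eBayes with trend set, on log2(FPKM + 1), deleted minus control and two-sided. P-values were adjusted by Benjamini-Hochberg over all tested genes, with calls at an adjusted p under 0.05. The log2(FPKM + 1) scale understates changes of low genes, and a plain fold is a ratio of mean FPKM. The fit was also tested on simulated data, with noise drawn apart for each gene and no shift of a whole library. That test therefore does not cover the shift of the third deleted library. Genes named singly were all members with a mean of at least 1 FPKM, members with a library at 1 FPKM, Dot1l, 7 signalling genes and, of each list, the 2 called genes with the smallest adjusted p in each direction. A few low members were named after their values were seen. The values of 1 gene that this rule names are not reported here. Alternatives were pseudocounts of 0.1 and 5, no filter, median-of-ratios scaling with and without the third deleted library, no variance trend, a replicate block and each library left out. FPKM gives no counts, so no counting intervals are given. Protein sequences were not used here.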

Additional observations from a re-analysis of the deposited data

How the results depend on the processing

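Clec12a, Clec7a, Clec5a, Mgl2, Tyrobp and Dot1l kept their direction and their call in all 14 alternatives. The log2 fold change of Dot1l was -1.46 to -1.24 with a library left out. Of the 20 members in the fit, 12 passed as higher and 0 as lower, but 5 of the 20 entered through the deleted group only and supply 4 of the 12, so these counts describe the fit and support nothing. Without the filter 7 were higher, and with a library left out 8 to 15. Lower calls were 2 with scaling, 1 with the replicate block, 2 with the block and scaling, 2 with scaling without the third deleted library, and 0 to 3 with a library left out. Of the 15 at 1 FPKM in both groups, 8 were higher, 4 without the filter and 4 to 11 with a library left out, and lower calls took the same values as for the 20. Signalling genes called higher were 7, against 13 with scaling, 11 with the block and scaling, 11 with scaling without the third deleted library, and 5 to 11 with a library left out. Those called lower were 5, against 3 without the filter, 8 with scaling, 9 with scaling without the third deleted library, and 2 to 10 with a library left out. On the other lectin-domain list, with Bst2, Susd2 and Prg2 included, higher calls were 4, against 9 with scaling, 7 with the block and scaling, 8 with scaling without the third deleted library, and 3 to 8 with a library left out. Those called lower were 3 in every fit with a library left out. Over all tested genes, 7.43% were higher and 12.2% lower as deposited, and 23.0% and 22.3% with scaling. No share over all tested genes was worked out for the other fits, so the member and list counts there have none beside them. Directions turned for Clec2f without control library 3 (-0.0125) and without deleted library 1 (-0.0196), over a range of -0.0196 to 0.246 with a library left out, and for Inpp5d with scaling and with the block and scaling (0.0035 in both). Over the named genes and these alternatives, 529 values kept direction and call, 41 gained a call, 28 lost one and 4 turned. The cause was not tested.

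Same-numbered control and deleted libraries had correlations of deviations of -0.03, -0.04 and 0.01. These show no pairing but cannot exclude it, and the labels do not say whether replicates pair. The replicate block is given here alone. With the block, Clec2i (-0.53, limma adjusted p = 0.0393), Klraq1 (0.47, 0.0498) and Clec11a (0.63, 0.00259) passed the test. The number of replicates and the low levels of most Klr genes limit the precision.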
